A study of Mus musculus with 3 samples.

Results

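The cells described here were the 509 mouse bladder urothelial cells that stood highest for a summed score of Areg, Ivl, Tff1, Krt23 and Tnfrsf12a, of 25784 cell barcodes in all. A barcode entered the choice with at least 500 genes, at most 20% mitochondrial UMIs (unique molecular identifiers, 1 per captured RNA molecule), at least 10000 UMIs and at least 0.2% of its UMIs from the uroplakin genes Upk1a, Upk1b, Upk2 and Upk3a, and 12728 barcodes passed. Within each library the top 4% by the score per UMI were taken, called members below, and the other 12219 passing cells of the same library are called the rest. The members numbered 115 in the wild-type library, 187 in the Lpar6 knockout library and 207 in the Cab39l knockout library, against 2772, 4483 and 4964 cells in the rest.

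Droplet 3' single-cell RNA sequencing had been run on bladder urothelium of wild-type mice, of mice lacking Lpar6, which encodes a lysophosphatidic acid receptor, and of mice lacking Cab39l, whose product MO25 beta holds the LKB1 kinase in its active complex. Each genotype was 1 library made from the pooled cells of 15 mice, and the labels used here name no strain, age, sex, knockout allele or treatment. The bladders were opened to trypsin from the lumen, and the suspension was strained and freed of red cells, so the cells seen are those that came loose singly. With 1 library per genotype no test between genotypes is possible, the intervals given cover counting error only, and genotype and library cannot be told apart.

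The urothelium is the layered lining of the bladder, with basal cells at the bottom, intermediate cells above them and umbrella cells that carry the uroplakin plaques facing the urine. Involucrin, the product of Ivl, is a precursor of the cornified envelope, the protein shell of squamous epithelia, and the small proline-rich proteins are cross-linked into the same shell. Amphiregulin, the product of Areg, is a ligand of the EGF receptor that is made as a membrane-bound precursor, is released by the protease ADAM17, and is known from epithelial repair. ERK signalling downstream of that receptor induces immediate early transcription factors together with phosphatases such as Dusp1 that switch it off again. Krt23 encodes a type I keratin, Tff1 a secreted trefoil peptide of mucosal surfaces, Tnfrsf12a the receptor of the cytokine TWEAK, and Sfn the 14-3-3 sigma protein of stratified epithelia.

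The promoters of the 5 genes that were at least 2-fold higher in members of every library are shown first, although 3 of them were in the score. Each window runs from 250 bases before to 50 bases after the transcription start, from RefSeq on GRCm38.p6, 5′ to 3′ on the gene's own strand. Capitals mark matches, searched on both strands. The AP-1 motif was searched as TGANTCA. The cyclic AMP response element was searched as TGACGTCA. The TATA box was searched as TATAAA. The TEAD motif was searched as GGAATG. The windows were Areg at chr5:91139349-91139648 on the plus strand, Ivl at chr3:92573686-92573985 on the minus strand, Krt23 at chr11:99493071-99493370 on the minus strand, Atf3 at chr1:191183284-191183583 on the minus strand and Sprr2f at chr3:92364937-92365236 on the plus strand.
Areg: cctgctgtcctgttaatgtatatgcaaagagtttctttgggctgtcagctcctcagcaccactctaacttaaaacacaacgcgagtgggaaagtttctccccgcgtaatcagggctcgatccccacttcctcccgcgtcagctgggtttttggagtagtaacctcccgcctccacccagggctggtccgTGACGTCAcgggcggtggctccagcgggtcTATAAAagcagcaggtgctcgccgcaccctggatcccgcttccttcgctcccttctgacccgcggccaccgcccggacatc
Ivl: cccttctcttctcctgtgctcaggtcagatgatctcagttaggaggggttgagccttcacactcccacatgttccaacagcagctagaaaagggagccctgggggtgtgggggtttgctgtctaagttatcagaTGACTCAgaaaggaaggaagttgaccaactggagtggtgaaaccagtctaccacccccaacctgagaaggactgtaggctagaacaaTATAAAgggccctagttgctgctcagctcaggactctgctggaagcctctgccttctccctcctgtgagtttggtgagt
Krt23: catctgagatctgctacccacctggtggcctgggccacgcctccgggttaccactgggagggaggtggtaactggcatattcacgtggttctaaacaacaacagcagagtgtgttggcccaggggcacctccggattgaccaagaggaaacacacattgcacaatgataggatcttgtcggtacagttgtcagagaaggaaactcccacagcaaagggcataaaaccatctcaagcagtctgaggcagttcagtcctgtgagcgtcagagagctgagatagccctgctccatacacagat
Atf3: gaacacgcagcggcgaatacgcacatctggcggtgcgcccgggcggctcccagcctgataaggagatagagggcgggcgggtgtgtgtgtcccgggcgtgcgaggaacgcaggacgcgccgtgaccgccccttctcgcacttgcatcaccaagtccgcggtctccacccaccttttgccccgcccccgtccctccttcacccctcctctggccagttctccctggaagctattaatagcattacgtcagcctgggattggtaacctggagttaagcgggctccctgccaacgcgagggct
Sprr2f: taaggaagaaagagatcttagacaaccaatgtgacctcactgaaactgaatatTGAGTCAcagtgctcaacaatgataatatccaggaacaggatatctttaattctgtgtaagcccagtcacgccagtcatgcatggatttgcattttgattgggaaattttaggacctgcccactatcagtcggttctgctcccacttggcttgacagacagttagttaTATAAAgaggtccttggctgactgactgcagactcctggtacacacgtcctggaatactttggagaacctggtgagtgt

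Areg held the cyclic AMP response element at position -61 from its start and a TATA box at -31. Ivl held 1 AP-1 motif at -116 and a TATA box at -29, and Sprr2f held 1 AP-1 motif at -197 and a TATA box at -29. The Krt23 and Atf3 windows held none of the 4 motifs. Of the 32851 RefSeq promoter windows of this length, 7.81% held the AP-1 motif, 1.79% the cyclic AMP response element, 13.6% the TATA box and 14.7% the TEAD motif. A match describes the letters in these windows and nothing about binding.

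The score was led by involucrin. Ivl gave 82.8% of the members' score UMIs in the wild type, 89.3% for Lpar6 and 77.9% for Cab39l knockout members, and 93.7%, 94.5% and 92.7% in the rest. Areg gave 6.40%, 2.86% and 3.43% of the members' score UMIs. Krt23 came second, with 8.80%, 6.24% and 15.8%. Among members 102 of 115, 170 of 187 and 166 of 207 were also in the top 4% of their library for Ivl alone, whereas 25, 29 and 44 were in the top 4% for Areg alone. Of the members, 65, 122 and 84 stood in the top 4% for exactly 1 of the 5 genes, and 0, 1 and 1 stood there for all 5.

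The choice used the levels of the 5 genes, so their differences between members and rest are given as a description without a test. The score of the last cell inside and of the first cell outside was 1681.0 and 1680.8 score CPM (score UMIs in 1000000 UMIs of the cell) in the wild type, 922 and 921 in the Lpar6 knockout, and 1225.0 and 1224.9 in the Cab39l knockout. The boundary therefore lay in a continuous range of scores and at no gap. The median score of all passing cells was 665, 368 and 407 score CPM, and the highest members reached 6694, 7187 and 7023. Because the top 4% was taken in each library, the members of the Lpar6 knockout were admitted at a lower score than those of the other libraries. At the wild-type boundary, 115 of 2887 wild-type cells (3.98%), 11 of 4670 Lpar6 knockout cells (0.236%, exact binomial 95% interval 0.118 to 0.421%) and 66 of 5171 Cab39l knockout cells (1.28%, 0.988 to 1.62%) would have passed. With every cell thinned to 10000 UMIs the shares were 5.13%, 0.535% and 1.51%, in the same order.

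Levels are in CPM, UMIs of a gene scaled to a sum of 1000000 over all genes. Ivl summed over members stood at 1990.3 CPM in wild-type, 1093 in Lpar6 knockout and 1334 in Cab39l knockout members, against 641, 352 and 401 in the rest. Krt23 stood at 212, 76.4 and 269.8 CPM in members and 26.9, 13.5 and 21.1 in the rest. Areg stood at 154, 35.0 and 58.8 CPM in members and 7.56, 3.20 and 3.86 in the rest. All 3 genes were higher in members than in the rest of every library, with the wild type highest for Ivl and Areg and the Cab39l knockout highest for Krt23. Tnfrsf12a stood at 29.3, 10.5 and 27.9 CPM in members against 2.90, 1.72 and 2.54 in the rest. Tff1 stood at 19.3, 9.55 and 22.0 CPM in members against 5.39, 1.96 and 4.28 in the rest. On the log2 scale of CPM plus 1, the differences of members over rest were 4.18, 3.10 and 3.62 for Areg, 2.93, 2.41 and 3.62 for Krt23, 2.96, 2.07 and 3.03 for Tnfrsf12a, 1.67, 1.83 and 2.12 for Tff1 and 1.63, 1.63 and 1.73 for Ivl. Ivl, which made up most of the score, had the smallest of these differences in every library.

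Sfn, which was named as a marker of these cells but was not in the score, stood at 1084 CPM in wild-type members against 531 in the rest, at 772 against 513 in the Lpar6 knockout, and at 1031 against 497 in the Cab39l knockout. Members lay in the highest 25% of their library for Sfn in 63.5%, 45.5% and 75.4% of cases. Sfn was thus higher in members of each library, least so in the Lpar6 knockout.

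**Figure D1:**
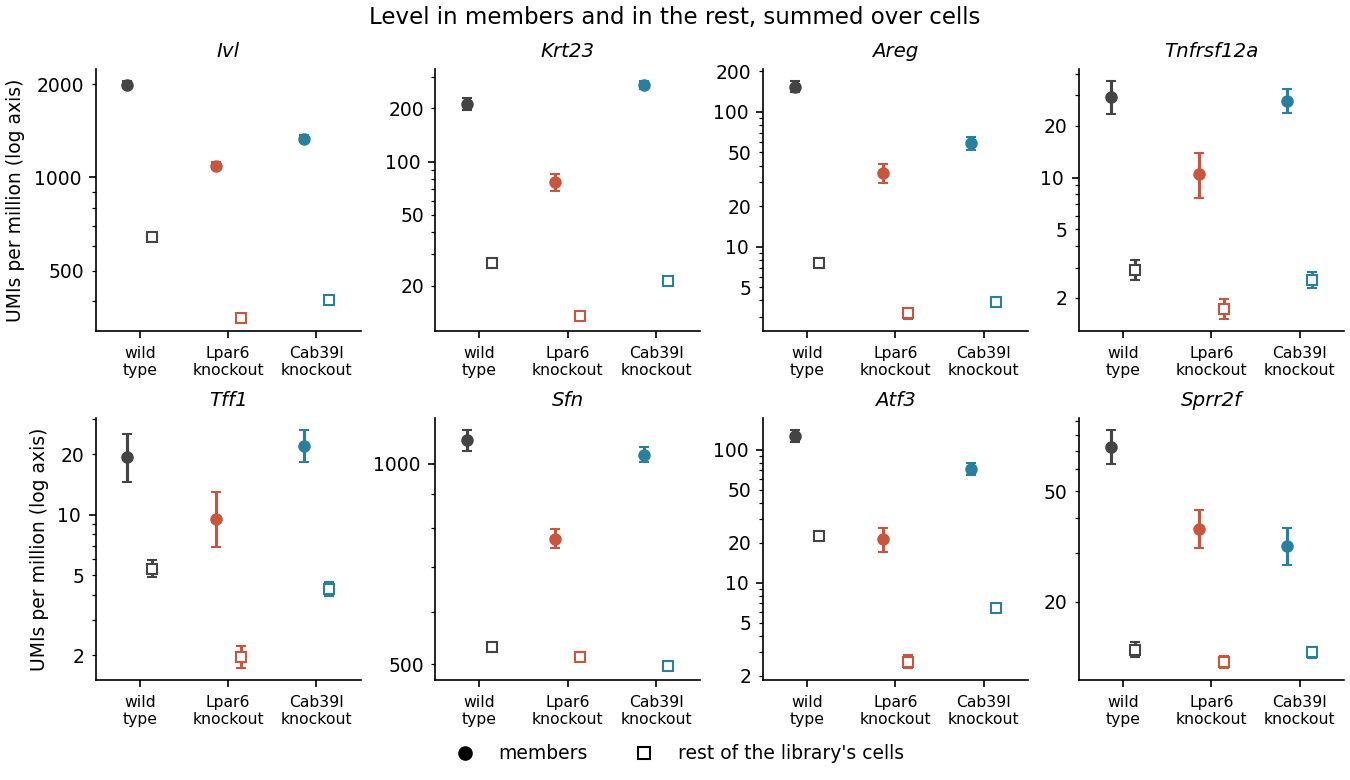
Level of 8 genes in CPM (log axis) in members (filled circles) and in the rest (open squares) of the 3 libraries, summed over cells, with exact Poisson 95% intervals that cover counting error only. Every filled circle lies above the open square of the same library, and Ivl and Sfn are the most abundant of the genes plotted. The first 5 genes were used to choose the members.

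The label Areg and Ivl high held for Ivl but for a minority of members for Areg. Every member had Ivl UMIs, with a median of 43, 25 and 32 per cell. Areg UMIs were found in 38 of 115, 38 of 187 and 62 of 207 members (33.0%, 20.3% and 30.0%), so 371 of the 509 members held none. In the rest the shares with an Areg UMI were 8.48%, 6.96% and 8.08%. The 5 members with most Areg held 51.3%, 54.5% and 53.6% of the members' Areg UMIs, while for Ivl that share was 11.2%, 7.28% and 6.71%. Krt23 UMIs were found in 67.0%, 49.2% and 78.3% of members, Tnfrsf12a UMIs in 24.3%, 14.4% and 35.3%, and Tff1 UMIs in 15.7%, 9.63% and 16.4%. The cells are therefore best described as led by Ivl, with an Areg-carrying minority.

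Barcodes with B-cell markers, which should lack these epithelial genes, were used to gauge the free RNA, although doublets were not removed from them. Their median depth was 2541, 2505 and 3299.5 UMIs, against 22124, 24287 and 25401 in members. An Areg UMI was found in 0 of 183, 0 of 29 and 1 of 114 of them, where a count of 0 allows a share of up to 1.64% and 10.3% in the first and second library, and Ivl UMIs in 31.1%, 34.5% and 28.1%. Thinned to 2000 UMIs per cell, Ivl was found in 98.3%, 82.9% and 91.3% of members, 66.7%, 49.3% and 52.96% of the rest and 22.3%, 19.0% and 21.6% of B-marker barcodes. Areg at that depth was found in 16.5%, 3.74% and 7.25% of members and in 1.33%, 0.558% and 0.725% of the rest. Of the B-marker barcodes at that depth, 0 of 139, 0 of 21 and 1 of 102 held Areg. Ivl was thus found more often in the rest than in the B-marker barcodes of every library. For members the same follows from their choice by a score led by Ivl. The 21 B-marker barcodes of the Lpar6 knockout were too few to set a level for Areg there.

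**Figure D2:**
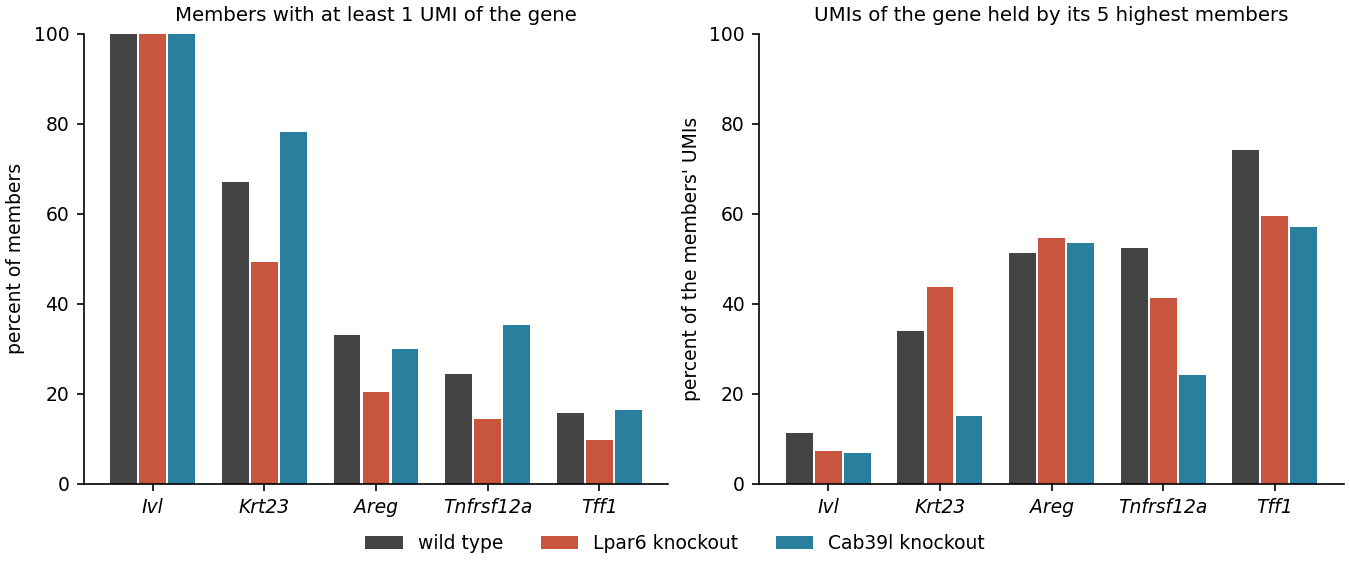
The percent of members with at least 1 UMI of each score gene (left) and the percent of the members' UMIs of that gene held by its 5 highest members (right), by library. Ivl was found in all members and spread widely, whereas 20.3 to 33.0% of members held Areg and 5 cells gave over 51% of its UMIs.

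When 1 score gene at a time was left out of the choice, the gene left out was still higher in the cells chosen by the other 4. The log2 difference for Areg was then 3.34, 2.56 and 3.45, for Krt23 2.72, 2.12 and 3.01, and for Tnfrsf12a 2.96, 2.04 and 2.88. It was 1.67, 1.001 and 0.71 for Tff1 and 0.71, 0.66 and 1.20 for Ivl. The smallest differences were thus those of Ivl and Tff1. Without Ivl the choice itself changed, and 33.0%, 27.3% and 54.6% of the members were chosen again, while without any other gene 83.6% or more were. The 5 genes were thus each higher where the others were high, but Ivl decided which cells were members. The choice of members was made with earlier results of these data known, so these values describe the set and do not test joint expression.

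Members were compared with the rest across all genes within each library, and a gene was counted with at least 50 UMIs over both sums and 20 CPM in the higher one. At least 2-fold higher were 33 of 5661 genes in the wild type (0.583%), 9 of 4702 in the Lpar6 knockout (0.191%) and 30 of 4693 in the Cab39l knockout (0.639%). At least 2-fold lower were 10 (0.177%), 1 (0.0213%) and 9 (0.192%). Of the 4421 genes counted in every library, 5 were at least 2-fold higher in all 3 (0.113%): Areg, Atf3, Krt23, Ivl and Sprr2f. The only gene at least 2-fold lower in all 3 (0.0226%) was Hbb-bs, a haemoglobin gene of red cells. Its UMIs were found in 69.6%, 19.8% and 13.5% of members and in 66.8%, 17.8% and 14.5% of the rest. The Hbb-bs difference thus lay in the number of molecules and not in the share of cells with a UMI. The median log2 difference over all genes was 0.03, 0.07 and 0.03, so the members differed from the rest in few genes beyond the score.

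Atf3, a stress-induced transcription factor of the ATF and CREB family, had the larger difference of the 2 genes outside the score. It stood at 126 CPM in wild-type members against 22.3 in the rest, at 21.1 against 2.55 in the Lpar6 knockout and at 71.6 against 6.47 in the Cab39l knockout, which are log2 differences of 2.45, 2.64 and 3.28. Atf3 UMIs were found in 30, 16 and 84 members, or 26.1%, 8.56% and 40.6%, against 8.73%, 3.55% and 7.45% of the rest. The 5 highest members held 61.0%, 87.1% and 36.1% of the Atf3 UMIs, so the Lpar6 knockout value rested on very few cells. B-marker barcodes also held Atf3, in 9.84%, 3.45% and 16.7% of cases at their lower depth. It stood there at 49.7, 9.27 and 111 CPM, on 30, 1 and 54 UMIs, which in the Cab39l knockout was above the members' level. Thinned to 2000 UMIs per cell, 6.47%, 0% and 8.82% of B-marker barcodes held Atf3. At that depth members held it in 13.9%, 2.14% and 12.6% of cases, and the rest in 2.60%, 0.558% and 1.33%.

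Sprr2f, a small proline-rich gene, stood at 72.4, 36.6 and 31.7 CPM in members against 13.4, 12.1 and 13.1 in the rest, log2 differences of 2.35, 1.52 and 1.21. Its UMIs lay in 9, 20 and 27 members, and the 5 highest held 96.6%, 87.0% and 81.0%. The share of members with a UMI was 7.83%, 10.7% and 13.0%, against 7.22%, 7.09% and 6.87% of the rest. It was near that of the rest in the wild type and above it in both knockouts, most so for Cab39l. In every library most of the members' Sprr2f UMIs nonetheless came from a few cells. Sprr2 genes have near-identical copies, and how the authors' counting split their reads is uncertain.

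At 1.5-fold, a size chosen after the values were seen, 15 of the 4421 genes were higher in members of all 3 libraries (0.339%) and 1 was lower (0.0226%). Beside the 5 above they included Dusp1, a phosphatase that inactivates ERK and related kinases, Ier3 and Klf6, early response genes, Sfn, Hspa1b, an inducible heat shock protein, Cxadr, a cell adhesion receptor of tight junctions, Coq10b, a coenzyme Q binding protein, Hs3st1, a heparan sulfate sulfotransferase, and Fabp4, a fatty acid binding protein. Dusp1 stood at 68.5, 26.6 and 28.2 CPM in members against 21.7, 13.7 and 13.9 in the rest. Fabp4 stood at 287, 226 and 179 CPM against 78.5, 137 and 86.4. The log2 differences of these 9 genes ranged from 0.59 to 1.86, and the wild type was highest for Fabp4, with 48.0% of its members' UMIs from 5 cells. Hspa1b has a near-identical neighbour, Hspa1a, and its reads could be split between the 2 genes.

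**Figure D3:**
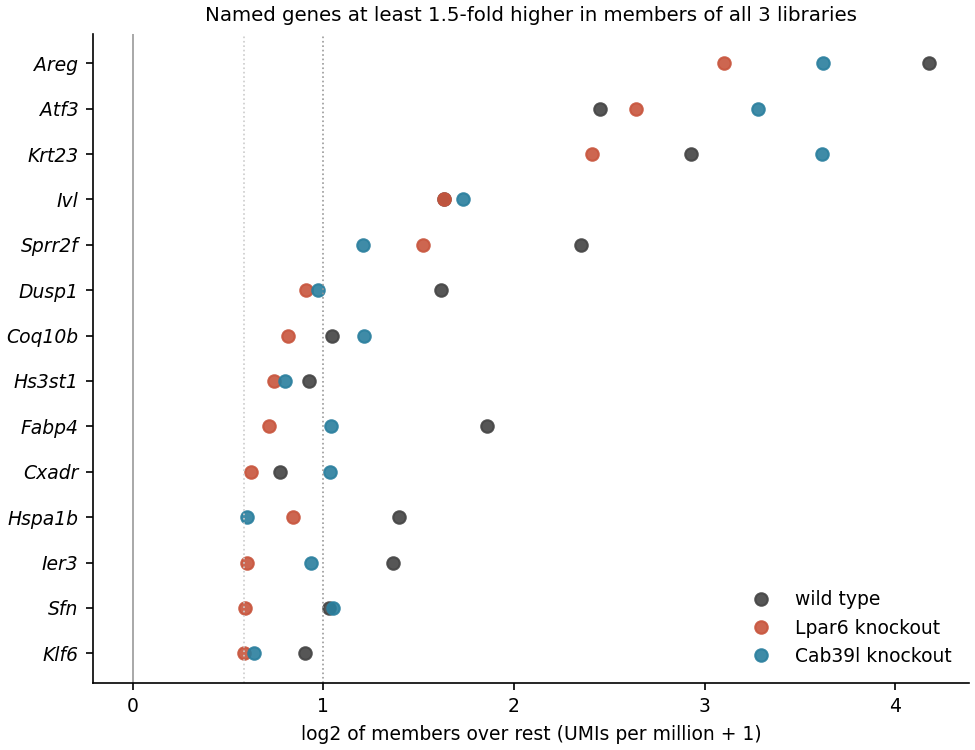
The log2 difference of members over rest, on CPM plus 1, for 14 of the 15 genes at least 1.5-fold higher in members of all 3 libraries, with 1 point per library. Dotted lines mark 1.5-fold and 2-fold. Areg, Atf3 and Krt23 lie at 2.41 or above in every library, and the Lpar6 knockout is lowest or close to lowest for most of the other genes.

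The gene lists are given as counts beside those over all genes. Of all 4421 genes, 1569 (35.5%) were higher in members of all 3 libraries by any amount and 741 (16.8%) were lower. Of 33 lists with a measured gene, 24 had a higher share than the 35.5% of all genes, so an excess of higher genes was common across the lists. Among ligands of the EGF receptor family, 2 of 10 were measured above the count minimum, Areg and Tgfa, and Tgfa differed by 0.47, 0.34 and 0.16 on the log2 scale. Hbegf, the ligand HB-EGF, was under the minimum in a library and stood at 37.8, 7.501 and 12.0 CPM in members against 9.47, 2.58 and 2.57 in the rest. Of the receptors and sheddases, Erbb2 differed by -0.05, 0.24 and 0.01, Erbb3 by 0.22, 0.20 and 0.28, and Adam10 by 0.24, 0.14 and 0.13. Egfr itself was low, at 13.9, 8.41 and 5.10 CPM in members and 12.6, 6.67 and 6.26 in the rest. Areg was a score gene, and Tgfa differed by about as much as Erbb3 and Adam10.

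All 4 measured feedback genes of ERK signalling were higher in members of all 3 libraries, with list medians of 1.14, 0.47 and 0.95 on the log2 scale. Dusp1 and Ier3 were past 1.5-fold in each library, Dusp4 differed by 0.93, 0.34 and 1.06, and Phlda1 by 0.88, 0.25 and 0.86. Of 12 measured immediate early genes 8 were higher in all 3 libraries and none was lower in all 3, with medians of 0.74, 0.34 and 0.20. Atf3 and Klf6 were past 1.5-fold throughout, whereas Fos differed by 1.06, 0.25 and 0.15, Egr1 by 1.06, 0.33 and 0.48, and Jun by 0.89, 0.35 and 0.18. Fosb and Nr4a1, under the count minimum in a library, stood at 46.7 and 43.9 CPM in wild-type members against 14.2 and 11.8 in the rest. In the Lpar6 knockout they stood at 4.55 and 5.91 CPM against 3.17 and 1.08, and in the Cab39l knockout at 22.2 and 14.6 against 4.32 and 2.39. The list median was thus highest in the wild type, whereas Atf3, Fosb and Nr4a1 had their largest log2 differences in the Cab39l knockout, at 3.28, 2.12 and 2.20.

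Of 30 genes of the cornified envelope and its cross-linking in the files, 7 were measured above the minimum. Ivl and Sprr2f were past 1.5-fold in all 3 libraries, Sprr1a differed by 0.68, 0.44 and 0.51 and the plakin periplakin, Ppl, by 0.63, 0.37 and 0.26. Sprr1a was the most abundant of them, at 2662, 2268 and 3187 CPM in members against 1656, 1666 and 2231 in the rest. The cross-linking enzyme Tgm1 was nearly unread, with 0, 0 and 2 UMIs over all members. The markers of fully squamous cells followed no such difference: 6 of them summed to 50.7, 43.0 and 51.5 CPM in members and 46.8, 49.2 and 52.7 in the rest, and Krt16, Lor and Flg were at 0 in members of each library. Involucrin was thus high without the late cornified genes.

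Keratins of simple and luminal epithelium were higher in members in 5 of 5 cases, with medians of 0.30, 0.39 and 0.30. Krt8 differed by 0.55, 0.43 and 0.52, and Krt20, the keratin of umbrella cells, by 1.08, 0.39 and 1.29. Krt20 stood at 109.9, 55.7 and 75.9 CPM in members against 51.5, 42.4 and 30.5 in the rest. The 5 measured uroplakins had medians of -0.05, 0.02 and -0.07, none was higher in all 3 libraries, and the 4 uroplakins that served as a filter made up a median of 0.652%, 0.996% and 0.932% of members' UMIs against 0.734%, 1.03% and 0.956% in the rest. Of 8 measured basal genes 5 were higher in all 3 libraries, with Krt5 at 0.41, 0.53 and 0.30 and Cd44 at 0.39, 0.56 and 0.58, while Trp63, the basal transcription factor, was at -0.34, -0.03 and -0.33. Members lay in the highest 25% for Krt5, Krt15 and Trp63 together in 33.0%, 44.9% and 24.6% of cases, and for Krt20 and Upk2 together in 27.0%, 28.3% and 23.7%. By these counts the members were drawn from neither end of the basal to umbrella axis in all libraries. Lpar6 knockout members leaned to the basal end, with 15.5% of them in the lowest 25% for the basal sum. Krt20 alone was higher in members of every library, which the joint sum with Upk2 did not show.

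Of 16 measured junction genes 12 were higher in members of all 3 libraries, with medians of 0.45, 0.29 and 0.35. The claudins Cldn4 and Cldn7 differed by 0.76, 0.26 and 0.77 and by 0.69, 0.30 and 0.71, and occludin, Ocln, by 0.74, 0.21 and 0.88. Cldn8 was lower, at -0.60, -0.14 and -0.37. Of 25 actin and tubulin genes 20 were higher in all 3, with medians of 0.26, 0.24 and 0.26, among them Actg1 at 0.53, 0.30 and 0.62 and Tubb2a at 0.80, 0.48 and 0.71. Of 11 genes of migration and matrix proteolysis 10 were higher in all 3, with medians of 0.29, 0.33 and 0.26, and Plaur, the urokinase receptor, stood at 9.99, 10.5 and 20.2 CPM in members against 2.89, 2.67 and 2.96 in the rest. Of 12 cholesterol synthesis genes 10 were higher in all 3, with medians of 0.55, 0.23 and 0.55 and Idi1 at 0.87, 0.25 and 0.62. These shares stood above the 35.5% of all genes, at small differences per gene.

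Further lists also had more genes higher in all 3 libraries than the share of all genes, with small medians. They were heat shock genes (8 of 11), glycolysis (8 of 11), the integrated stress and unfolded protein response (6 of 8), p53 targets (7 of 12), translation initiation and nucleolus (7 of 12), epithelial transcription factors (12 of 21), trefoil, mucin and surface glycoprotein genes (4 of 4), the TNF receptor family (3 of 3), fatty acid genes (4 of 9), nuclear non-coding RNAs (4 of 7), gasdermins and cell death (2 of 2) and replication and mitosis (2 of 2). Their medians lay between 0.03 and 0.39. At or below that share were mitochondrially encoded genes (4 of 13), NF-kB targets (1 of 3), squamous and wound keratins (1 of 3), the Notch pathway (1 of 4) and interferon response genes (0 of 3). The lists of NRF2 targets (6 of 15 higher in all 3 libraries), xenobiotic enzymes (2 of 7), class I antigen presentation (2 of 7) and YAP and TEAD targets (0 of 4) had medians between -0.14 and 0.07. Of the metallothioneins, which bind zinc and copper, Mt1 stood at 226, 278 and 346 CPM in members against 375, 343 and 458 in the rest, and Mt2 at 44.6, 40.9 and 55.5 against 79.9, 56.6 and 79.2. The log2 differences were -0.73, -0.30 and -0.40 for Mt1 and -0.83, -0.46 and -0.50 for Mt2, and both genes are named after their values were seen.

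Depth and mitochondrial share were lower in members. Members had a lower median depth than the rest, 22124 against 23702.5, 24287 against 27440 and 25401 against 31046.5 UMIs, and mitochondrial shares of 8.55% against 8.70%, 5.98% against 6.26% and 5.75% against 6.14%. The lowest 25% of their library for UMIs held 27.8%, 41.7% and 32.9% of members, and the lowest 25% for mitochondrial share 26.1%, 34.8% and 41.1%. Across genes the log2 difference had a Spearman correlation with transcript length of 0.23, 0.21 and 0.09 over 5408, 4466 and 4455 genes, which share libraries and are not replicates. Of 84 ribosomal protein genes 76 were lower in members of all 3 libraries, with medians of -0.15, -0.11 and -0.10. The part of depth and transcript length in the small list differences was not tested. Doublet scores in the top 6% of a library were found in 6.09%, 6.95% and 6.28% of members and 8.55%, 7.38% and 7.55% of the rest.

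Markers of other cell types were low in members. The 4 B-cell markers had no UMI in any member, and macrophage and dendritic markers summed to 7.49, 2.95 and 4.92 CPM in members against 28.1, 6.89 and 15.4 in the rest. Neutrophil markers summed to 7.14 in wild-type members against 46.3 in the rest, and haemoglobin and other erythroid genes to 82.8, 13.9 and 7.83 against 295, 129 and 52.0. Markers of secretory glands were similar in members and rest of the wild type (68.2 and 59.9) and Lpar6 knockout (37.3 and 35.2) but lower in members of the Cab39l knockout (76.3 against 222), where Sbp, a seminal protein gene, stood at 12.2 against 97.1. No barcode sequence was shared between the members of different libraries, while 15 were shared among all passing cells.

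The Xist RNA, which is made from the inactive X chromosome of female cells, divided the members unevenly. The labels do not give the sex of the mice, and passing cells of each library fell into some with many and some with few Xist UMIs. At least 5 Xist UMIs were found in 11 of 115 wild-type members (9.57%, exact binomial 95% interval 4.87 to 16.5%) against 51.1% of the rest, in 102 of 187 Lpar6 knockout members (54.5%, 47.1 to 61.8%) against 60.9%, and in 24 of 207 Cab39l knockout members (11.6%, 7.57 to 16.8%) against 40.9%. Xist stood at 124, 499 and 103 CPM in members and 742, 579 and 368 in the rest. The Y-linked genes Ddx3y, Uty, Kdm5d and Eif2s3y together stood at 119.9, 53.2 and 104 in members and 56.3, 42.7 and 64.0 in the rest. Members were thus mostly Xist-poor in the wild type and the Cab39l knockout, and near the make-up of the rest in the Lpar6 knockout.

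Read the other way, members made up 7.13% of wild-type cells with at most 4 Xist UMIs and 0.770% of those with at least 5. The shares were 4.62% and 3.60% in the Lpar6 knockout and 5.87% and 1.17% in the Cab39l knockout. Within cells of at most 4 Xist UMIs, the 8 genes of the plot of levels were all higher in members. Sprr2f in the Lpar6 knockout differed by 0.03 only, and 5 of the 8 were score genes, whose difference is part of the choice. In these Xist-poor cells Areg stood at 169 CPM in members against 10.6 in the rest of the wild type. It stood at 44.9 against 3.10 in the Lpar6 knockout and at 59.99 against 3.62 in the Cab39l knockout. Within cells of at least 5 Xist UMIs, Areg was found in no wild-type member (0 UMIs in 11 cells, against 4.87 CPM in the rest), and stood at 26.4 against 3.26 in the Lpar6 knockout and 47.6 against 4.21 in the Cab39l knockout. Ivl was higher in members of both classes, by 1.43 and 1.79 on the log2 scale in the wild type, 1.63 and 1.63 in the Lpar6 knockout and 1.71 and 1.69 in the Cab39l knockout. Since the score was mostly Ivl, the Ivl difference in both classes follows from the choice of members. The Areg UMIs of the wild-type members all lay in the Xist-poor class. These classes were drawn after the values were seen, and the part of sex in the differences was not tested.

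**Figure D4:**
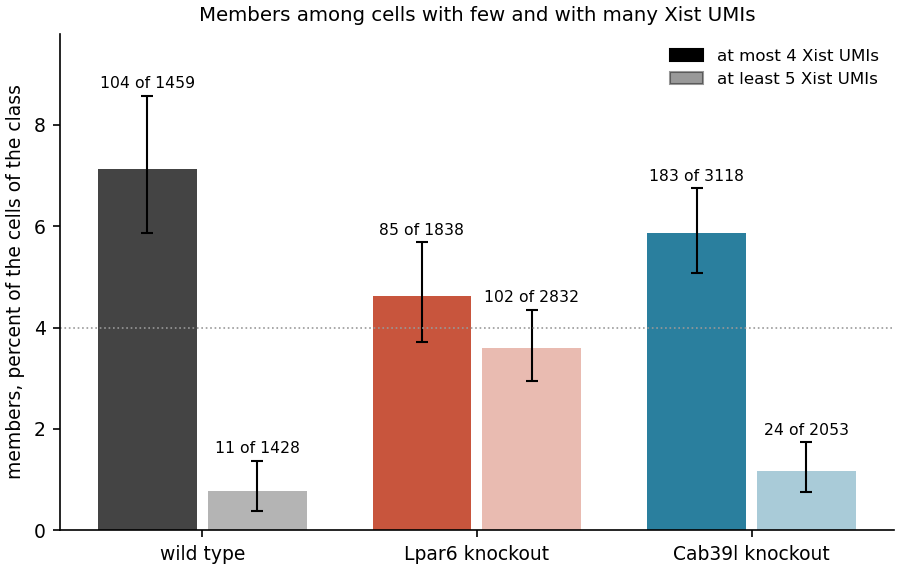
Members as a percent of the passing cells with at most 4 Xist UMIs (solid bars) and with at least 5 (pale bars), with exact binomial 95% intervals that cover counting error only and the counts above each bar. The dotted line marks the 4% taken from each library. Members are 7.13% and 0.770% of the wild-type classes and lie close to 4% in both classes of the Lpar6 knockout.

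Members with 3 or more Areg UMIs, a division made after the values were seen, numbered 22, 14 and 26, of 73, 30 and 65 such cells among all passing cells. Their median depth was 26241.5, 27427.5 and 32244.5 UMIs, against 21881, 23853 and 24316 in the other members. Ivl still gave 58.1%, 67.9% and 60.5% of their score. At least 2-fold higher in them than in the other members were 83 wild-type genes (1.45%), 119 genes for Lpar6 (2.34%) and 60 for Cab39l (1.22%), with 18 genes shared by all 3 libraries (0.4% of 4497) and 0 shared genes 2-fold lower. Areg itself chose these cells, and the other 17 were Sprr2f, Atf3, Krt23, Egr1, Dusp1, Coq10b, Ugcg, Ocln, Klf4, Trim25, Cpeb4, Fos, Ier3, Cxadr, Cd55, Hs3st1 and Phlda1. Among them Atf3, Egr1, Fos and Klf4 encode transcription factors, and Cxadr and Ocln encode proteins of tight junctions.

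The values of the strongest of the shared genes lay as follows. Atf3 had 272 UMIs in the 22 Areg-rich wild-type members and 82 in the other 93, 81 against 12 in the Lpar6 knockout and 159 against 234 in the Cab39l knockout, log2 differences of 3.58, 5.77 and 2.005. Sprr2f had 159 against 44, 81 against 80 and 130 against 44 UMIs, differences of 3.67, 3.38 and 4.01. Dusp1 had 119 against 73, 29 against 88 and 43 against 112 UMIs, differences of 2.55, 1.77 and 1.17. The Areg-rich members were thus 14 to 26 cells per library that also held much of the Atf3 and Sprr2f. Of them 22 of 22, 7 of 14 and 25 of 26 had at most 4 Xist UMIs.

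Without the Areg-rich members, 2 genes were at least 2-fold higher in the members of all 3 libraries (0.0455% of 4395) and 5 at least 1.5-fold (0.114%). Atf3 then differed from the rest by 0.71, 0.17 and 2.76, Krt23 by 1.85, 2.03 and 3.33, Dusp1 by 0.59, 0.64 and 0.74, and Sprr2f by 0.54, 0.67 and -0.45. Most of the Atf3 difference in the wild type and the Lpar6 knockout, and most of the Sprr2f difference, was therefore held by the Areg-rich cells. Of the wild-type members' Krt23 UMIs 374 lay in the Areg-rich cells and 219 in the others, whereas the others held 235 of 336 for Lpar6 and 1038 of 1482 for Cab39l. Krt23 remained at least 2-fold higher in the other members of every library, although its wild-type difference fell from 2.93 to 1.85. It was thus 1 of the 2 genes, and Atf3 and Sprr2f were not. As Krt23 was a score gene, its value describes the choice of members as well.

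**Figure D5:**
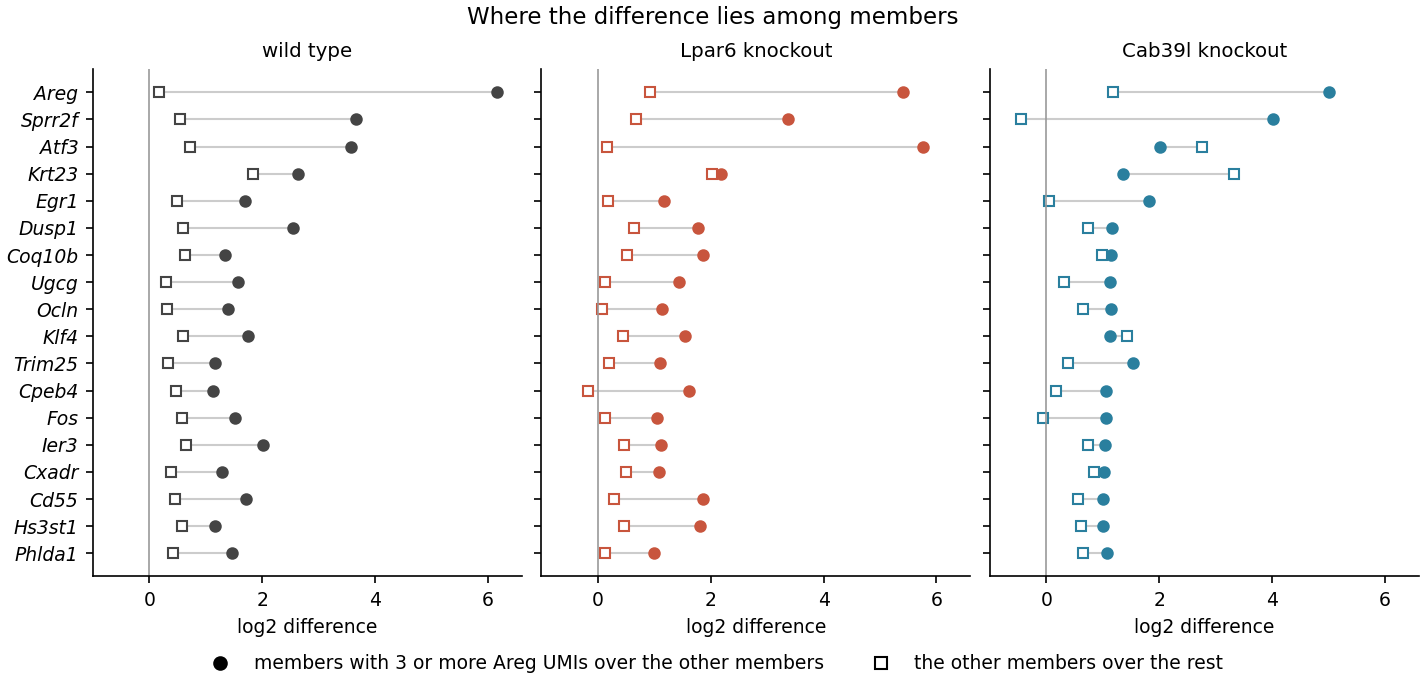
For the 18 genes at least 2-fold higher in Areg-rich members (3 or more Areg UMIs) than in other members of all 3 libraries, filled circles give the log2 difference of Areg-rich over other members and open squares that of the other members over the rest. For most genes the filled circle lies to the right of the open square; for Krt23, Atf3 and Klf4 in the Cab39l knockout it lies to the left.

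In the space of the 2000 most variable genes other than those left out, the members did not form 1 group. Left out were the score genes, Lpar6, Cab39l, Xist, Tsix, the Y-linked genes and the ribosomal, haemoglobin, mitochondrial and predicted genes. Of the 15 nearest neighbours of a member, 11.9%, 8.09% and 26.1% were members, where 4% is the base, and 36.5%, 42.2% and 26.6% of members had no member among them. Cells chosen by Ivl alone had 10.3%, 6.92% and 15.9% of their own kind among the neighbours, and cells chosen by the other 4 genes 29.9%, 7.56% and 39.3%. The members were thus most gathered in the Cab39l knockout and most scattered in the Lpar6 knockout. The 4% base does not allow for the uneven Xist classes. Of cells with at most 4 Xist UMIs, members made up 7.13%, 4.62% and 5.87%. The part of sex in the neighbour shares was not tested. Overlap with other high-scoring cells was partial: 50.4%, 43.3% and 48.3% of members lay in the highest 25% for Sprr1a, 43.5%, 32.1% and 41.1% for Fabp4 and Clu, 40.9%, 38.5% and 32.9% for 8 immediate early genes, and 19.1%, 25.7% and 14.5% for Gsdmc2, Gsdmc3 and Krt4.

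Some genes were at least 2-fold higher in members of 1 library and not in those of the others. In the Lpar6 knockout, Nupr1, a small stress-response protein, stood at 70.9 CPM in members against 6.96 in the rest, but at 2.498 against 2.70 in the wild type and, in the opposite direction, 1.82 against 6.43 in the Cab39l knockout. Its 312 UMIs in Lpar6 knockout members lay in 23 cells, and 5 of them held 84.0%. Reg3g, an antimicrobial lectin, stood at 34.3 against 8.26 there, with 87.4% from 5 cells, and at 6.42 against 7.15 and 5.10 against 4.71 in the other libraries. Krt15, a basal keratin, stood at 512 in Lpar6 knockout members against 197 in the rest, and at 1341 against 1066 and 997 against 1126 in the wild type and the Cab39l knockout. The Krt15 difference was spread over 105 of the 187 members, with 23.0% from 5 cells. Nupr1 and Reg3g were thus differences of a handful of cells, and Krt15 was not.

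Between genotypes, the members were compared across libraries as a description of 1 library against another. Lpar6 had 31 UMIs in wild-type members, 61 in Cab39l knockout members and 0 in Lpar6 knockout members, where a count of 0 allows up to 0.682 CPM. Cab39l stood at 115 CPM in wild-type, 96.6 in Lpar6 knockout and 26.0 in Cab39l knockout members, so 3' reads of Cab39l remained, and what part of the gene was removed is not given by the labels. Both targeted genes thus stood lowest in the members of the library labelled for them.

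Of 5608 genes, 22 (0.392%) were at least 2-fold higher in Lpar6 knockout than in wild-type members and 393 (7.01%) at least 2-fold lower, and of 5606 genes 9 (0.161%) were higher and 656 (11.7%) lower in Cab39l knockout members. The median gene was shifted by -0.33 and -0.35 on the log2 scale in members, and by -0.35 and -0.32 in the rest. With TMM scaling, which centres the bulk of the genes, the splits became 134 higher and 75 lower for Lpar6 and 177 higher and 79 lower for Cab39l, so the excess of lower genes depended on the scaling. In the rest 5 (0.0911%) and 179 (3.26%) genes differed for Lpar6 and 6 (0.109%) and 287 (5.22%) for Cab39l. Both comparisons share the wild-type members.

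Few genes differed between genotypes by at least 1 log2 unit more in members than in the rest: 3 higher (0.0535%) and 6 lower (0.107%) for Lpar6, and 0 higher (0%) and 1 lower (0.0178%) for Cab39l. Higher in Lpar6 knockout members were Nupr1, by 4.36 in members and 1.11 in the rest, Reg3g, by 2.25 and 0.18, and Xist, by 1.998 in members and -0.36 in the rest. Krt15 was lower in both, at -1.39 in members and -2.43 in the rest, so it was lower by less in members. The lower genes were Areg, at -2.10 in members and -1.03 in the rest, Fosb at -3.11 and -1.86, Rdh10, a retinol dehydrogenase, at -1.44 and -0.44, the relaxin gene Rln1 at -1.43 and 0.27, Ovol1, an epithelial transcription factor, at -1.20 and -0.13, and the haemoglobin gene Hbb-bs at -2.37 and -1.14. For Cab39l the gene was Sprr2f, at -1.17 in members and -0.03 in the rest. Spink1, a secreted trypsin inhibitor, was higher in the Cab39l knockout by 3.19 in members and by 4.55 in the rest, so it was higher by less in members. The share of Xist-poor cells differed between the members compared, at 90.4% of wild-type, 45.5% of Lpar6 knockout and 88.4% of Cab39l knockout members. Within cells of at most 4 Xist UMIs, Areg of the Lpar6 knockout was at -1.89 in members and -1.50 in the rest, Fosb at -2.51 and -2.11, and Ovol1 at -1.13 and -0.34, so these 3 no longer differed by 1 log2 unit more in members. Reg3g turned to -0.63 in members and 0.07 in the rest, on 6 and 13 UMIs in the 2 groups of members. Nupr1 (2.15 and -0.57), Rdh10 (-1.67 and -0.66), Rln1 (-1.26 and -0.03) and Hbb-bs (-2.60 and -1.07) still differed by that much. In knockout and wild-type members Nupr1 had 32 and 7 UMIs, Rdh10 32 and 132, Rln1 22 and 69, and Hbb-bs 17 and 141. Nupr1, at 15.6 and 2.75 CPM in these members, was under the count minimum. Sprr2f of the Cab39l knockout stood at -1.17 in members and -0.72 in the rest there, so it no longer did. Since the members of each library were chosen by their own top 4% for a score that holds Areg, the Areg value describes the choice as well as the genotype.

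The score genes themselves differed between the members of the libraries in both directions. Ivl differed by -0.86 in Lpar6 knockout members and -0.58 in Cab39l knockout members against wild-type members, and by -0.86 and -0.67 in the rest. Krt23 differed by -1.46 and 0.35 in members and by -0.94 and -0.34 in the rest, and Tnfrsf12a by -1.40 and -0.07 against -0.52 and -0.14. Atf3 differed by -2.52 and -0.81 in members and by -2.72 and -1.64 in the rest. The lower Ivl and Atf3 of the Lpar6 knockout were thus found in members and rest alike. Because each library's members were its own top 4% for a score led by Ivl, their Ivl follows that of the library. Atf3 UMIs of the Lpar6 knockout members lay in 16 cells, and the 5 highest held 87.1%.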

How the data were processed

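Single-cell RNA was measured in 3 mouse bladder urothelium libraries. The deposited values were raw UMI counts per gene and barcode in 10x matrices, and per the submitters' processing notes they were made with Cell Ranger 3.0.2 on mm10. The chemistry and alignment settings are not given in the sources used here. Library totals were 101977647, 139250807 and 175075246 UMIs over 8085, 8293 and 9406 barcodes. The filters and the score are as given in the report. The members, the gene lists and the rules for naming genes were chosen with earlier results of these data known.

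Counts were summed over members and over the rest of each library and scaled to CPM (a sum of 1000000), and differences are log2 of values plus a pseudocount of 1. Genes with at least 50 UMIs over both sums and 20 CPM in the higher sum were counted at 2-fold. Named genes were the score genes, Sfn, the filter uroplakins, both targeted genes, the 15 highest and lowest past 2-fold in all 3 libraries, the 5 highest and lowest between genotypes that differed by at least 1 log2 unit from the rest, and up to 6 genes of each list. Genes for ribosomal proteins, haemoglobins and mitochondrial transcripts, sex-linked genes and predicted models were kept out of these rankings. Others were chosen after their values were seen. 1 gene is not reported here. No p-value was computed, because each genotype is 1 library and cells are not replicates. Exact Poisson and Clopper-Pearson binomial 95% intervals cover counting error only. The 15 neighbours were found on 30 principal components. Scrublet's own threshold called 22, 0 and 0 doublets (0.509%, 0% and 0% of the cells scored), too few to use, and the top 6% of scores were compared and then left out as an alternative. The sums and folds were tested on simulated data. Python 3.11.15, numpy 2.4.6, scipy 1.17.1, pandas 2.3.3, scanpy 1.11.5 and scikit-learn 1.9.0 were used. The promoter table matched 6 of the 7 genes looked for.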

Additional observations from a re-analysis of the deposited data

Results flagged for a closer look

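Barcodes with fewer than 10000 UMIs that passed the other filters were not used for the comparisons. Among them 17.6% in the Lpar6 knockout (189 of 1076) had a score at or above that library's member boundary, against 4% of the deeper cells by construction. In the wild type the share was 6.63% (53 of 799) and in the Cab39l knockout 7.29% (87 of 1194). It was singled out because a signal appeared in barcodes outside the main measurement. A score from fewer UMIs scatters more, and the part of depth in these shares was not tested.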

How the results depend on the processing

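No paired analysis was possible because each genotype is 1 library and no replicate numbers are shared. The text gives counts of 5 and 1 genes at least 2-fold higher and lower in members of all 3 libraries, 22 and 393 in Lpar6 knockout members and 9 and 656 in Cab39l knockout members against wild-type members. The first pair became 3 and 0 for the top 8%, 13 and 7 with at least 20 UMIs and no minimum level, 2 and 0 with at least 200 UMIs and 50 CPM, 17 and 3 without the Lpar6 knockout library, and 2 and 0 in cells with at least 5 Xist UMIs. It was 2 higher without the members of 3 or more Areg UMIs and 15 higher at 1.5-fold. The genotype counts became 35 and 18 higher for the top 2%, 238 and 376 lower with at most 10% mitochondrial UMIs, and 55 and 43 higher when thinned to 10000 UMIs per cell. With TMM scaling they were 134 higher and 75 lower, and 177 higher and 79 lower. With at least 20 UMIs and no minimum level they were 109 and 696, and 54 and 1127, and with at least 200 UMIs and 50 CPM 10 and 149, and 5 and 297. Cells with at least 5 Xist UMIs gave 227 higher for Lpar6, and 48 and 189 for Cab39l, and 14 were higher for Cab39l without the Areg-rich members. In cells with at least 5 Xist UMIs, wild-type Areg, Tff1 and Sprr2f turned to -2.55, -1.65 and -2.01 and Cab39l knockout Sprr2f to -1.98, on few members with 0 or 1 UMIs; without the Areg-rich members, Cab39l knockout Sprr2f turned to -0.45. The cause was not tested. Both Xist settings, the Areg setting and 1.5-fold were chosen after seeing the data. With at least 20000 UMIs 4 genes were at least 2-fold higher in all 3 libraries, and in the Cab39l knockout Sprr2f fell from 1.21 to 0.41 and Tff1 from 2.12 to 1.21. Under TMM scaling the log2 differences of the 8 genes in the plot of levels stayed at 0.50 or above. With 14 to 26 Areg-rich members per library, values that rest on them are limited by the number of cells.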
